A study of Rattus norvegicus with 6 samples.

Results

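Leukocyte lineage miRNAs are miRNAs that blood-forming cells make far more of than heart muscle does, and 6 of them were chosen by name from the 758 miRNAs on the arrays. Of these rat (rno) miRNAs, rno-miR-150-5p and rno-miR-342-3p stood for lymphoid cells, rno-miR-223-3p and rno-miR-511-3p for myeloid cells, and rno-miR-142-3p and rno-miR-142-5p, the arms of 1 precursor, for leukocytes of all lineages. The rule used no measured value, although earlier results of these arrays were known when it was set. Levels were measured on 6 single-colour arrays (Agilent, rat miRNA), hybridised with total RNA of myocardium from male Sprague–Dawley rats, 3 of the control group and 3 of the model group, 4 weeks after surgery. Rats of the model group had a ligature tied around the left anterior descending coronary artery, and in those of the control group the thread was passed but not tied. Model tissue came from the infarct marginal zone, while the labels call the control tissue only myocardium, so that infarction and sampling site cannot be told apart. The animals' age was not given in the sources used here. The 6 arrays shared a slide and a scan time, with the control arrays and model array 1 in row 1 and model arrays 2 and 3 in row 2. Each array held RNA of 1 rat.

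MiR-150 is abundant in mature B and T lymphocytes, where it restrains the transcription factor Myb, and miR-342 is made from an intron of Evl and is also rich in lymphocytes. MiR-223 belongs to neutrophils, monocytes and platelets and tunes myeloid differentiation, and miR-511 is made from an intron of Mrc1, the gene of the mannose receptor of tissue macrophages. MiR-142 is found in nearly all blood-forming lineages and is often used as a pan-leukocyte mark. After an infarction, neutrophils and monocytes enter the injured wall, macrophages clear it, and lymphocytes join during healing.

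The RefSeq tables of the rat assembly GRCr8 held the mature sequence of 5 of the 6 miRNAs, which are shown because the bases printed in capitals, the seed at bases 2 to 8, decide which messages a miRNA can bind.
miR-342-3p: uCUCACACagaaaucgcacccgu
miR-223-3p: uGUCAGUUugucaaauacccc
miR-511-3p: aAUGUGUAgcaaaagacagga
miR-142-3p: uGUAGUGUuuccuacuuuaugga
miR-142-5p: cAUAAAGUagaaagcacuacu
These are 5 different seeds, and 0 other mature miRNAs of the table carried any of them. MiR-150-5p, which had no entry, was not compared. The share of G and C ran from 33.3% in miR-142-5p to 52.2% in miR-342-3p. In the same assembly, Mir342 lay within the bounds of Evl (chr6:133329715-133329737 for the mature miR-342-3p, plus strand), Mir511 within those of Mrc1 (chr17:82188001-82188021 for miR-511-3p, plus strand) and Mir142 within those of Tspoap1 (chr10:73055155-73055177 for miR-142-3p, plus strand). Mature miR-223-3p was at chrX:65151450-65151470, plus strand. The array files name no genome build, and these positions come from the match of the miRNA names to RefSeq.

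Background had been subtracted in the deposited signals, which are in arbitrary intensity units. A probe counted as detected when its signal exceeded 3 times its error, and the signal of a miRNA was the sum of its detected probes. For scaling, signals were divided by the array's 75th percentile over 198 miRNAs that all 6 arrays detected. That value was 145, 189 and 146 (control arrays) against 203, 193 and 168 (model arrays). Log2 of the scaled signal was compared with limma over miRNAs that all 3 arrays of a group detected, 214 in number, with Benjamini-Hochberg adjustment. Across the 214, log2 fold changes had a median of -0.14, so the change of each tested leukocyte miRNA is also given relative to that median. Between 27.2% and 29.3% of the miRNAs were detected on an array, and the cardiomyocyte miRNAs miR-1-3p and miR-133b-3p had signals of 5117 to 11740 and 6337 to 13643.

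Of the 6 leukocyte miRNAs, 5 were detected on all 6 arrays and could be tested, and miR-142-5p was detected on 0 arrays. One lymphoid miRNA, miR-150-5p, fell in the model group, and one myeloid miRNA, miR-511-3p, rose. The other lymphoid and myeloid miRNAs, miR-342-3p and miR-223-3p, and the pan-leukocyte miR-142-3p did not pass the threshold. An adjusted p under 0.05 was reached by 22.9% of all 214 miRNAs, of which those lower in the model group made up 12.6% and those higher 10.3% of the 214. With any 1 array left out, the lower calls numbered between 2 and 21 in place of 27. The higher calls numbered between 12 and 22 in place of 22. Both were fewest without control array 1, so this background itself changes with the arrays used. With 2 of 5, the leukocyte miRNAs are too few to be set apart from that share. The median log2 fold change of the 5 was -0.073. In RNA from whole tissue, fewer cells of a type and less of a miRNA per cell cannot be told apart.

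**Figure D1:**
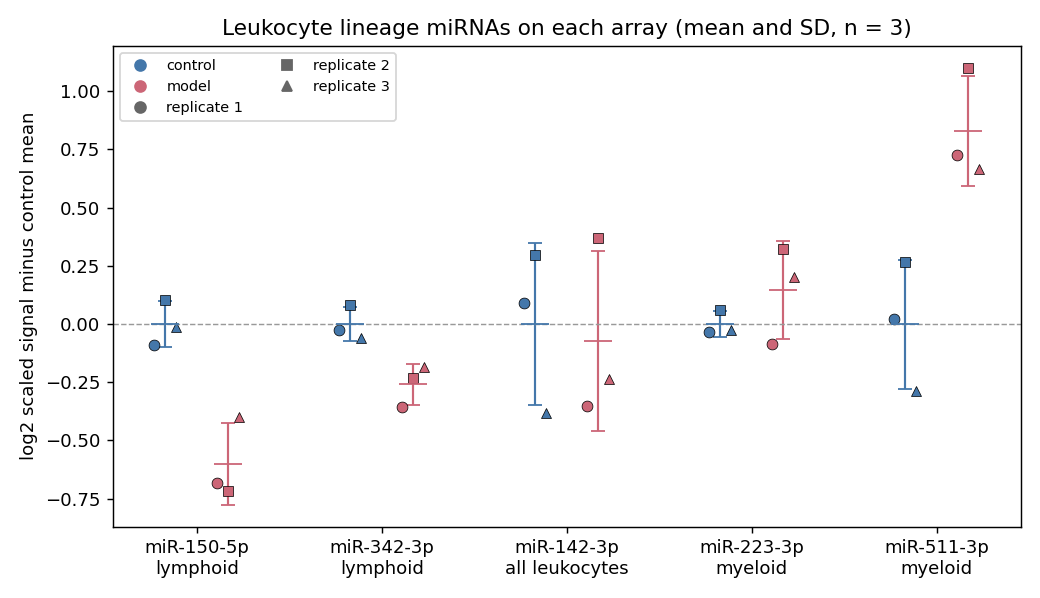
Log2 scaled signal of the 5 detected leukocyte miRNAs on each array, less the mean of the control group, with bars for mean and SD (n = 3) and symbols for the replicates. The model arrays lie below all control arrays for miR-150-5p and miR-342-3p and above them for miR-511-3p, and the groups overlap for miR-142-3p and miR-223-3p. Of all 214 miRNAs, 47.2% had groups without overlap, 30.8% with the model group lower and 16.4% with it higher.

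The signal of rno-miR-150-5p was 239, 356 and 252 (control arrays) against 221, 205 and 224 (model arrays). Every model array was below every control array, before and after scaling, while in the authors' normalized values control array 1 and model array 3 were equal, at 7.90. The scaled log2 signal was 0.81 ± 0.098 (control, SD, n = 3) against 0.21 ± 0.18 (model, SD, n = 3). This is a log2 fold change of -0.60 (standard error, SE, 0.12, limma adjusted p = 0.0178), or a level 1.52-fold higher in the control group, and -0.47 relative to the median. Of the 214 miRNAs, 18 had a lower log2 fold change. An exact permutation test of 3 arrays against 3 gave p = 0.10 (two-sided), the smallest p it can give. The direction was the same in each of 22 alternative settings, while the adjusted p ran from 0.0108 to 0.373 and was under 0.05 in 9 of them. Settings that altered only the floor, the detection filter, the test statistic or the replicate block could not move this fold change. With a block for slide row, which sets model array 1 against the control arrays, the log2 fold change was -0.68 (adjusted p = 0.0608, limma). Leaving out control array 1, 2 or 3 or model array 1 or 2 raised the adjusted p to between 0.0526 and 0.0693.

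For rno-miR-342-3p the signal was 61.8, 86.8 and 60.5 (control arrays) against 68.7, 71.1 and 64.1 (model arrays). These signals overlapped, and after scaling each model array lay below each control array. The scaled log2 signal was -1.21 ± 0.075 (control, SD, n = 3) against -1.47 ± 0.089 (model, SD, n = 3). The log2 fold change was -0.26 (SE 0.084, limma adjusted p = 0.0802), or -0.12 relative to the median, with a 95% confidence interval of -0.47 to -0.052 before adjustment for the number of miRNAs. It passed the threshold with the 75th percentile of all miRNAs as scaling, at -0.38 (adjusted p = 0.0267), and without scaling it was -0.017. With the total signal column of the files, which moved this miRNA through the scaling values alone, it was 0.081. Its call thus changed with the scaling, and its value ran from -0.38 to 0.081. The pooled SD within groups, 0.082 log2 units, was smaller than that of most tested miRNAs, whose median was 0.17.

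The macrophage-linked rno-miR-511-3p had signals of 4.54, 7.0 and 3.67 (control arrays) against 10.3, 12.7 and 8.22 (model arrays). The groups did not overlap before or after scaling, and all 6 values were above the lowest detected signals of 1.16 to 1.60. The scaled log2 signal was -5.02 ± 0.28 (control, SD, n = 3) against -4.19 ± 0.24 (model, SD, n = 3). The log2 fold change was 0.83 (SE 0.19, limma adjusted p = 0.0281), a 1.78-fold higher level in the model group and 0.97 relative to the median. Only 13 of the 214 miRNAs had a higher log2 fold change. The exact permutation test gave p = 0.10 (two-sided). Without control array 1 or 3, or model array 1 or 2, the adjusted p lay between 0.0590 and 0.0841. With a block for slide row it was 0.160, at a log2 fold change of 0.72.

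MiR-511-3p also depended on how its signal was built. The total signal column of the files exceeded the miRNA's own detected probes on 6 of 6 arrays, with 29.5, 39.1 and 23.9 (control arrays) against 32.0, 33.5 and 26.6 (model arrays). With that column the log2 fold change was 0.12 (adjusted p = 0.542, limma), or -0.039 relative to the median in that setting. The column also changed the scaling values, which alone moved the other 4 tested leukocyte miRNAs up by 0.34. At the scaling values given above, a setting chosen after seeing the data, miR-511-3p had a log2 fold change of -0.22 (limma adjusted p = 0.191). Relative to the median in that setting this was -0.039. With normexp background correction (offset 50), which averaged its probes whether detected or not, miR-511-3p was at -0.034 (limma adjusted p = 0.482). Relative to the median in that setting this was 0.066. The totals of the other detected leukocyte miRNAs equalled the sums of their probes.

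The granulocyte and monocyte miRNA rno-miR-223-3p had signals of 42.0, 58.6 and 42.4 (control arrays) against 56.9, 71.7 and 57.5 (model arrays). After scaling the groups overlapped, because model array 1 lay below all 3 control arrays while model arrays 2 and 3 lay above them. The scaled log2 signal was -1.75 ± 0.054 (control, SD, n = 3) against -1.61 ± 0.21 (model, SD, n = 3). The log2 fold change of 0.15 (SE 0.12, limma adjusted p = 0.377) had a 95% confidence interval of -0.15 to 0.45 and was 0.28 relative to the median. With a block for slide row it was -0.086. Before scaling, model arrays 1 and 3 were nearly equal, while their scaling values were 203 and 168. The part of the slide row in these values was not tested.

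The pan-leukocyte rno-miR-142-3p had signals of 21.6, 32.5 and 15.6 (control arrays) against 22.3, 34.9 and 20.0 (model arrays), and the groups overlapped. The scaled log2 signal was -2.84 ± 0.35 (control, SD, n = 3) against -2.91 ± 0.39 (model, SD, n = 3). Its pooled SD of 0.37 log2 units exceeded that of 86.4% of the tested miRNAs. The log2 fold change of -0.073 (SE 0.26, limma adjusted p = 0.861) therefore had a wide 95% confidence interval of -0.71 to 0.56, and relative to the median it was 0.062. The arrays leave a change of either sign possible for this pan-leukocyte mark.

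The other arm, rno-miR-142-5p, has 2 probes, and neither exceeded 3 times its error on any array. Over both probes, detected or not, the signals summed to 0.619, 3.12 and 0.779 (control arrays) against 1.52, 2.80 and 0.933 (model arrays). Both groups were below the detection rule, so no fold change is given, and the ratio of the arms could not be formed. Among the other arms of the remaining precursors, miR-223-5p, miR-342-5p and miR-511-5p were detected on 0 arrays. MiR-150-3p was detected on 1 control array, at 3.13, and on 1 model array, at 3.28, and was not tested.

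Each miRNA was read by probes in 8 spots, which allows its probes to be compared. The log2 fold changes of the probes of miR-150-5p were -0.61 and -0.60, those of miR-342-3p -0.26 and -0.25, and those of miR-142-3p -0.069 and -0.082. MiR-223-3p had 0.078 with one probe and 0.20 with the other, and the model arrays overlapped the control arrays with both. For miR-511-3p only 1 of the 2 probes was detected. The other probe read -0.23, 0.75 and 0.43 (control arrays) against 2.19, 2.44 and 1.35 (model arrays), under 3 times its error on all 6. The probes thus differed by less than 0.13 log2 units for the 4 miRNAs with both detected, and miR-511-3p rests on 1 probe.

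**Figure D2:**
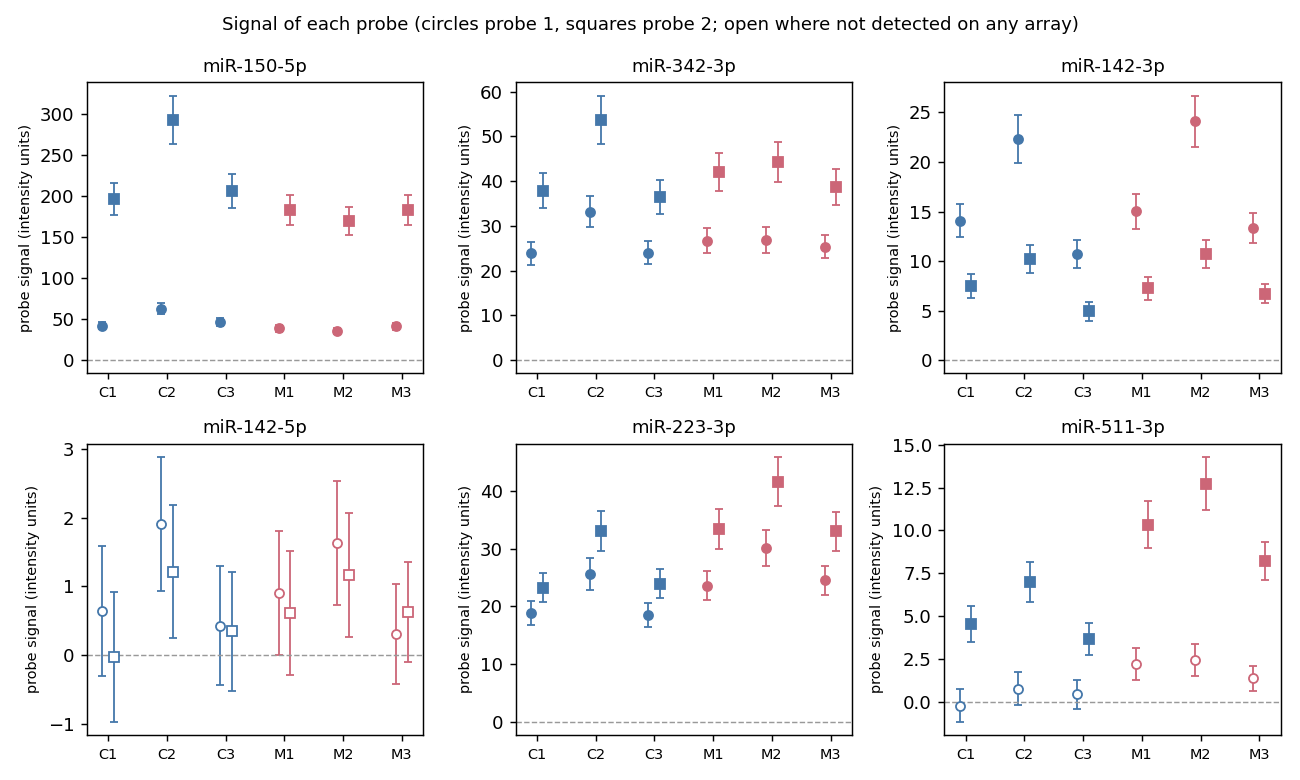
Signal of each probe in intensity units on control arrays C1 to C3 and model arrays M1 to M3, with bars for the probe error given by the software, circles for probe 1 and squares for probe 2, and open symbols for probes detected on no array. Both probes of miR-150-5p are lower on the model arrays, and the values of miR-142-5p, between -0.023 and 1.91, stay under 3 times their error.

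A ratio of 2 miRNAs on the same array does not change when that array is rescaled, and it shows whether the miRNAs changed unequally. The 4 ratios of a myeloid to a lymphoid miRNA were higher on all 3 model arrays than on any control array when formed from the detected probes. Both miR-511-3p ratios overlapped between groups with the totals as deposited, where the differences were 0.38 to miR-150-5p and 0.034 to miR-342-3p. With normexp they were 0.44 and 0.15, without overlap. The ratio of miR-223-3p to miR-342-3p overlapped after quantile normalization. From the detected probes, the log2 ratio of miR-511-3p to miR-150-5p was -5.72, -5.67 and -6.10 (control arrays) against -4.42, -4.01 and -4.77 (model arrays), a difference of 1.43 (SE 0.26, 95% confidence interval 0.71 to 2.15). For miR-223-3p to miR-150-5p the log2 ratios were -2.50, -2.60 and -2.57 (control arrays) against -1.96, -1.52 and -1.96 (model arrays), a difference of 0.75 (SE 0.15). The differences of miR-511-3p and miR-223-3p to miR-342-3p were 1.09 (SE 0.18) and 0.40 (SE 0.084). For miR-223-3p, normexp gave 0.48 to miR-150-5p and 0.19 to miR-342-3p. Each of the 4 ratios was higher on model array 1 than on any of the control arrays, with which it shared a slide row. The part of the slide row in the ratios was not tested. Groups that do not overlap were found for 47.2% of the 214 single miRNAs, 16.4% with the model group higher and 30.8% with it lower. No such share was computed for ratios, and both ratios within a lineage, given below, also did not overlap. The exact permutation test gave p = 0.10 (two-sided) for each of the 4 ratios and 0.10 after Benjamini-Hochberg adjustment over the 4, the smallest p that 3 arrays against 3 can give. The 4 ratios share 4 miRNAs and are not independent.

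**Figure D3:**
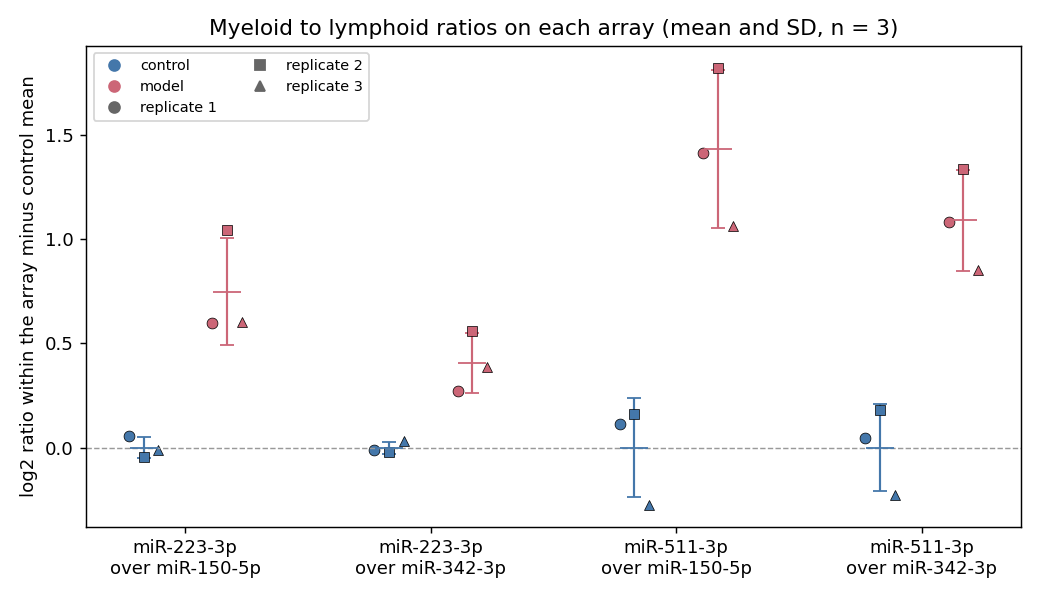
Log2 ratio of a myeloid to a lymphoid miRNA on each array, from the sums of detected probes, less the mean of the control group, with bars for mean and SD (n = 3) and symbols for the replicates. All model arrays lie above all control arrays for the 4 ratios, with mean differences of 0.40 to 1.43. With the totals as deposited both miR-511-3p ratios overlap between groups, at 0.38 and 0.034.

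Ratios within a lineage and to miR-142-3p were added after the values were seen. MiR-511-3p was higher relative to miR-223-3p by 0.68 (SE 0.18), and miR-342-3p was higher relative to miR-150-5p by 0.34 (SE 0.086), both without overlap of the groups (exact permutation test, two-sided, p = 0.10). Relative to miR-142-3p, miR-511-3p was higher in the model group by 0.90 (SE 0.11) without overlap, with log2 ratios of -2.25, -2.22 and -2.09 (control arrays) against -1.11, -1.45 and -1.28 (model arrays). MiR-150-5p relative to miR-142-3p differed by -0.53 (SE 0.34, 95% confidence interval -1.47 to 0.41), and the groups overlapped. Exact permutation tests of the 4 ratios to miR-142-3p gave adjusted p of 0.40 to 0.60.

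The miRNAs closest in pattern were sought among those detected on all arrays, by Euclidean distance between log2 signals relative to the control mean over the 6 arrays. For miR-150-5p these were miR-486, a red blood cell miRNA (distance 0.22), and miR-30a-3p (0.24), against a median distance of 0.92. For miR-511-3p they were miR-146b-5p, which myeloid cells induce in inflammation (0.28), and miR-497-5p (0.37), against a median of 1.84. MiR-342-3p lay nearest to miR-181c-5p (0.15) and let-7d-5p (0.16), miR-223-3p to miR-16-5p (0.19) and miR-500-3p (0.19), and miR-142-3p to miR-532-5p (0.35) and miR-15a-5p (0.41). By the build of this distance, near miRNAs have like changes, here log2 fold changes of -0.68 for miR-486 and 0.75 for miR-146b-5p.

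Of 12 other miRNAs of immune responses, 8 were tested, and 4 rose with an adjusted p under 0.05 in limma (10.3% of all miRNAs did). At that threshold 0 fell, and 0 also at an unadjusted p under 0.05. MiR-132-3p, counted in the 4 and in the median below, was tested only because the model arrays detected it. The list was drawn up with results of these arrays known, and its median log2 fold change was 0.36 against -0.14 for all 214 miRNAs. That median rests on miR-132-3p, since without it the middle value is that of miR-181b-5p, -0.024. MiR-155-5p, which is induced in activated macrophages and lymphocytes, had a log2 fold change of 1.07 (SE 0.17). Its signals were low, at 3.38, 5.69 and 3.04 (control arrays) against 9.07, 9.95 and 9.87 (model arrays). On model array 3 this signal held both of its probes, and on every other array only the detected part of them. When undetected probes were also counted, it read 4.32, 6.94 and 4.09 (control arrays) against 11.9, 12.3 and 9.87 (model arrays). MiR-21-5p had 1.1 (SE 0.17), although fibroblasts make it too. MiR-146b-5p, a brake on innate immune signalling, had signals of 10.4, 17.4 and 10.5 (control arrays) against 24.7, 29.8 and 20.1 (model arrays), and its log2 fold change was 0.75 (SE 0.15). Their limma adjusted p lay between 0.0104 and 0.0217. MiR-132-3p was detected on no control array and read 4.12, 4.44 and 3.22 on the model arrays. Its controls were set to the floor and have only a bound, so no fold change or p is given for it. MiR-146a-5p, which has the same role as miR-146b-5p, did not pass the threshold, at -0.42 (SE 0.22, adjusted p = 0.204). The lymphocyte-rich but widely made miR-181a-5p and miR-181b-5p had log2 fold changes of -0.050 and -0.024. MiR-212-3p, of the same cluster as miR-132-3p, had signals of 39.7, 46.8 and 46.1 (control arrays) against 76.7, 48.3 and 24.7 (model arrays), with a log2 fold change of -0.21 (SE 0.34, limma adjusted p = 0.674).

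Marker miRNAs of other cells moved with the groups. Of 2 tested red blood cell miRNAs of a list of 5, miR-486 fell, with a log2 fold change of -0.68 (SE 0.11), and miR-451-5p was at -0.53 (SE 0.21, adjusted p = 0.132). MiR-144-3p and miR-144-5p of that list were detected on no array, and the summed signal of the list was 283 to 339 among control arrays against 217 to 243 among model arrays. Of 7 tested cardiomyocyte miRNAs of a list of 8, 5 fell and 0 rose, with a median of -0.72 and a summed signal of 16781 to 26354 among control arrays against 11901 to 16044 among model arrays. Both endothelial miR-126a arms fell, with a median of -0.54 and a summed signal of 1187 to 1733 among control arrays against 1120 to 1216 among model arrays. All 3 fibroblast or matrix miRNAs, miR-199a-5p, miR-199a-3p and miR-214-3p, rose, with a median of 1.84. Their summed signal was 317 to 479 among control arrays against 1167 to 1789 among model arrays. This list holds both arms of miR-199a, so its members are not independent. It was drawn up with results of these arrays known, and the paper already reports its miRNAs as raised on them. Their rise is therefore no separate test, and the fibroblast content of the tissue was not tested. Of all 214 miRNAs 12.6% fell and 10.3% rose. The fold change of miR-150-5p, -0.60, lay between those of the 2 tested red blood cell miRNAs. The endothelial miRNAs were slightly above it, at -0.59 and -0.49, and the cardiomyocyte miRNAs below it, from -0.91 to -0.68. The part of blood content and tissue makeup in the change of miR-150-5p was not tested.

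**Figure D4:**
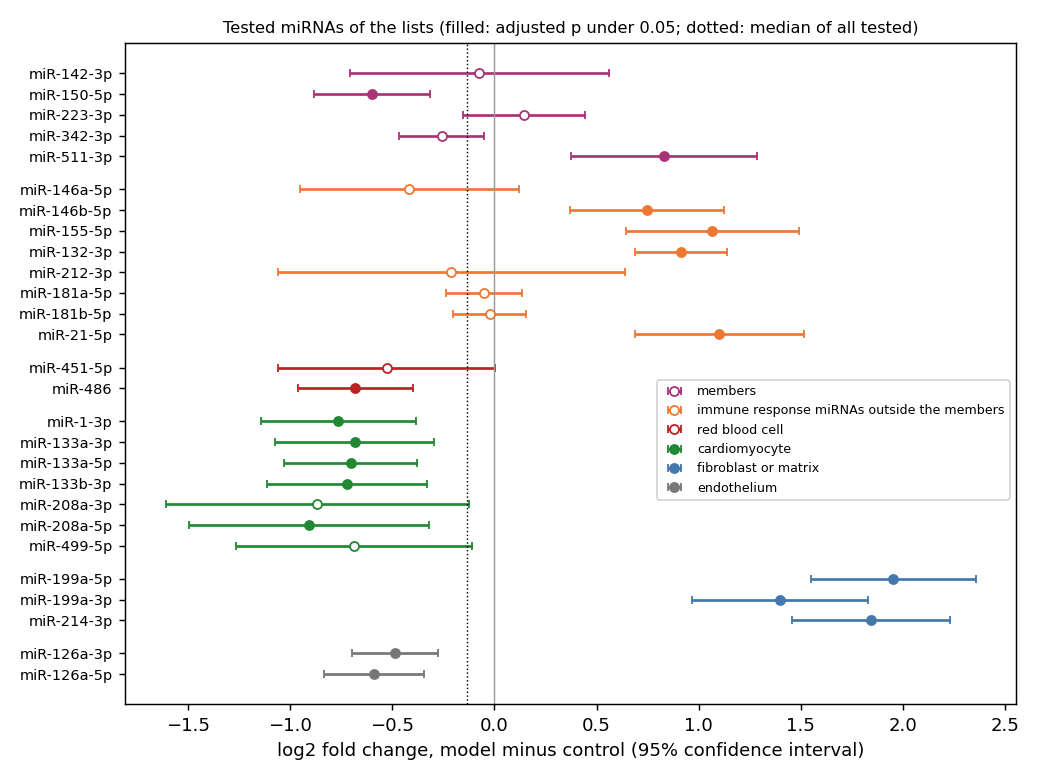
Log2 fold change between the model and control groups with its 95% confidence interval for the tested miRNAs of each list, filled where the adjusted p was under 0.05. MiR-150-5p lies beside the red blood cell and endothelial miRNAs, with the cardiomyocyte miRNAs lower, from -0.91 to -0.68. MiR-511-3p lies beside miR-146b-5p, and the dotted line marks the median of all 214 miRNAs, -0.14. The controls of miR-132-3p were set to the floor, so its interval holds no spread of its controls.

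**Figure D5:**
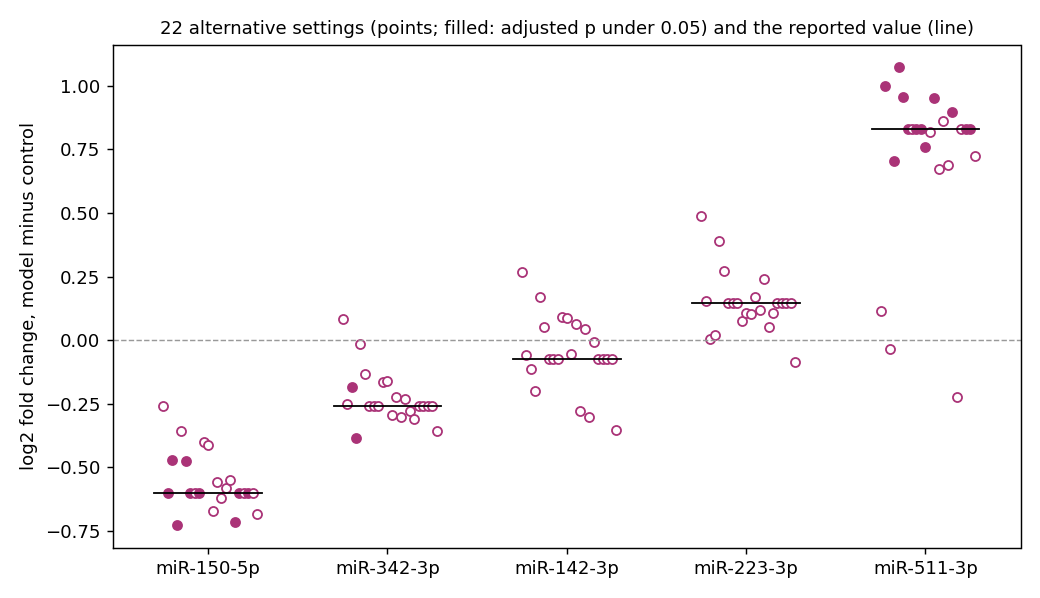
Log2 fold change of the 5 detected leukocyte miRNAs under 22 alternative settings (points, filled where the adjusted p was under 0.05) and as reported (lines). MiR-150-5p stays below 0 in all 22 settings and miR-511-3p above 0 in 20, while the other 3 have values on both sides of 0. Settings that alter only the floor, the detection filter, the test statistic or the replicate block repeat the reported fold change.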

How the data were processed

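Total RNA of 3 control and 3 model rats was hybridised to 6 single-colour (Cy3) Agilent miRNA arrays, 1 rat per array, and groups and replicate numbers come from the sample labels. The deposited intensity values are the output of Agilent Feature Extraction 10.7.1.1, per the submitters' processing notes, background-subtracted and not scaled between arrays. The authors also deposited log2 values normalized by a method not given in the sources used here. Each array holds 758 miRNAs, 1806 probes and 12128 spots, with 0 saturated. The total signal of a miRNA was rebuilt as the sum of distinct probes over 3 times their error, because the total column exceeded a miRNA's own probes for 47 to 51 detected miRNAs per array (relative tolerance 0.0001).

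Scaled signals were floored at the highest of the arrays' lowest detected values (-6.50 on the log2 scale). limma 3.58.1 in R 4.3.3 (lmFit, eBayes, no covariates) was used at an adjusted p of 0.05, and exact permutation tests with scipy 1.17.1 in Python 3.11.15. The fit was tested on simulated data. The leukocyte miRNAs, the lists and the tests were chosen with earlier results of these data known. All 6 were named, with some members of the lists and the 2 nearest patterns of each. The number of arrays limits the precision. Same-numbered control and model arrays had correlations of deviations of -0.26, 0.0011 and 0.16, and differently numbered ones of -0.22 to 0.21. With 3 arrays per group these values cannot decide whether the numbers pair the samples. The main fit used no pairing. A block for slide or scan date could not be fitted, because all arrays share both.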

Additional observations from a re-analysis of the deposited data

How the results depend on the processing

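MiR-150-5p kept its sign in 22 of 22 alternatives, miR-511-3p in 20, miR-342-3p in 21, miR-223-3p in 21 and miR-142-3p in 15. The adjusted p of miR-150-5p was not under 0.05 with the totals as deposited (log2 fold change -0.26, moved by the scaling values alone, since its totals equal its probe sums), no scaling (-0.36), quantile normalization (-0.40), the authors' normalized values (-0.41), no detection filter (-0.60, with many miRNAs held at the floor in the fit), the methods' t-test (-0.60, adjusted p = 0.050) and a block for slide row (-0.68). For miR-511-3p this held with the totals as deposited (0.12), no detection filter (0.83), the methods' t-test (0.83, adjusted p = 0.0756) and the row as a block (0.72), and normexp background correction turned its sign (-0.034), as did the totals as deposited at the reported scaling (-0.22), chosen after seeing the data. MiR-342-3p passed the threshold with normexp (-0.18) and under 75th-percentile scaling over all miRNAs (-0.38), and was 0.081 with the totals as deposited. MiR-223-3p was -0.086 with the row as a block.

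Over fits that each left out 1 array, the log2 fold change ran from -0.72 to -0.55 for miR-150-5p, from 0.67 to 0.95 for miR-511-3p, from -0.31 to -0.23 for miR-342-3p, from 0.051 to 0.24 for miR-223-3p and from -0.30 to 0.065 for miR-142-3p. The number of miRNAs with an adjusted p under 0.05, 49 with all arrays, ran from 14 without control array 1 to 39 without model array 3, with 12 higher and 2 lower without control array 1. It was 9 with no detection filter, 19 with no scaling, 26 with the methods' t-test, 16 with the replicate block (12 higher and 4 lower) and 29 with the row as a block. The split into higher and lower, 22 and 27, became 19 and 47 under 75th-percentile scaling over all miRNAs, 19 and 0 in limma with no scaling, 35 and 1 with the totals as deposited, 30 and 16 with centring on the median deviation, 23 and 16 with quantile normalization and 23 and 14 with the authors' values.

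With the replicate number as a block, miR-150-5p kept its log2 fold change of -0.60 at an adjusted p of 0.0790, miR-511-3p had 0.0229, and the other 3 stayed above 0.05. The arrays share only a number.

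Of the ratios, miR-511-3p to miR-150-5p was 0.38 with the totals as deposited, 0.44 with normexp, 1.23 with quantile normalization and 1.17 with the authors' values. MiR-511-3p to miR-342-3p was 0.034, 0.15, 1.00 and 0.92 in the same order. MiR-223-3p to miR-150-5p was 0.48, 0.48 and 0.52 in the last 3 of these, and to miR-342-3p 0.19, 0.24 and 0.27. All 4 stayed above 0 in all 12 alternatives. With no overlap, leaving out arrays or the replicate block cannot turn the sign. For miR-223-3p the totals repeat the reported ratios. Without 1 array the ratios ran 1.24 to 1.61, 0.97 to 1.21, 0.60 to 0.82 and 0.33 to 0.47 in the order above. As pairs under the replicate block, each gave an exact p of 0.25, the smallest that 3 pairs allow. Signals near the lowest detected value limit miR-511-3p and miR-142-5p. Where no value above shows it, the cause was not tested.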
